A study of Mus musculus with 15 samples.

Results

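The genes described here are 30 genes of fatty acid oxidation and ketogenesis, a fixed list of symbols taken from pathway knowledge. Earlier results of these data were known when the list was chosen. All 30 were found once each among the 16809 genes of the deposited table, and all 30 passed the filter on low counts that left 12658 genes to test. The study sequenced liver RNA of wild-type mice in 15 libraries, 3 in each of 5 groups, over 6 weeks of feeding. Control mice ate standard feed. Model mice ate a high-fat mix of 78.8% standard feed with lard and egg yolk powder at 10% each, cholesterol at 1% and sodium cholate at 0.2%. The remaining mice also had a high-fat diet, of unstated make-up, and were given a plant flavonoid by oral gavage. The daily dose was 200 mg/kg of quercetin, 75 mg/kg of myricetin or 100 mg/kg of kaempferol. Sex, strain, age, fasting, time of day at collection and gavage of the control and model mice are not stated. Each library is called by its group and its title number. The labels do not say that they came from separate mice, so p-values measure the spread between these libraries, which may be technical.

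A fatty acid that enters the liver cell is first joined to coenzyme A, and carnitine then carries long chains into the mitochondrion. There, acyl-CoA dehydrogenases, hydratases, hydroxyacyl-CoA dehydrogenases and thiolases shorten the chain in repeated rounds. Very long and branched chains are shortened in the peroxisome by a separate set of enzymes, and double bonds need auxiliary isomerases and reductases. The liver turns much of the acetyl-CoA that results into ketone bodies for other organs, above all in fasting. The nuclear receptor PPAR alpha, encoded by Ppara, switches on many of these genes in liver when fatty acids bind it.

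Most of the 30 genes differed little between groups. Against the control, the model had higher Acaa1b, the B form of the peroxisomal thiolase, at 1.92-fold, and higher Decr2, the peroxisomal dienoyl-CoA reductase, at 1.43-fold. Against the model, quercetin livers had less Acsl1, the long-chain acyl-CoA synthetase, and less Crot, the peroxisomal carnitine octanoyltransferase, and slightly more Bdh1, the mitochondrial enzyme that makes hydroxybutyrate from acetoacetate. With myricetin or kaempferol 0 of the 30 passed edgeR's test, where 0.395% and 0.0395% of all genes tested passed, and DESeq2 called 1 in each. Of the 12 genes of the mitochondrial spiral itself, 0 passed edgeR's test in any of the 4 comparisons. The shares of all genes tested were 4.46% in the model and 7.82% with quercetin, so 0 of 12 is near the background.

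Acaa1b and Acaa1a, the thiolase forms that stand side by side in the results below, are near-identical genes. In GRCm38.p6, Acaa1b lies at chr9:119148043-119157093 and Acaa1a at chr9:119341028-119350296, 183.9 kb apart. Their coding sequences in GENCODE M21 are both 1272 bases long and differ at 44 bases, an identity of 96.54%. The stretch below, coding bases 460 to 549 of each, holds 13 of those differences, which are in capitals. It is shown because, within the coding sequence, bases of this kind are all that lets a read be given to one gene rather than the other.
Acaa1a: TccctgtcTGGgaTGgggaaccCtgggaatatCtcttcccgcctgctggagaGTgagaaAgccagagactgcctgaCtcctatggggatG
Acaa1b: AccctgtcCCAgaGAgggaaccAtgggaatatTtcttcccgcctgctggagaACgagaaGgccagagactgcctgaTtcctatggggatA
Of the 1640 windows of 50 bases in the Acaa1b transcript, 583, or 35.55%, also occur in Acaa1a. Among the 30 genes these 2 alone had counts that were not whole, in 14 libraries each, and their sum was whole (within 0.01) in 15 of 15 libraries. The deposited counts thus split shared reads between them, and values of either gene alone are uncertain in part.

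Promoter sequence was examined because PPAR alpha binds, with its partner RXR, a direct repeat of AGGTCA with 1 base between the copies. Windows from 250 bases before to 50 bases after the start site, from RefSeq on GRCm38.p6, were at hand for 26 of the 30 genes (29 windows). Windows of Acaa2, Hsd17b4, Crat and Decr1 were not used here. The 250 bases before the start site are shown for Acaa1b, the gene with the largest rise in the model, and for Acsl1 and Crot, the genes that fell with quercetin. Acsl1 has a further window, at chr8:46490716-46491015, which is not shown. Capitals mark the CCAAT box (CCAAT) and the GC box (GGGCGG), each on either strand. The windows are chr9:119157094-119157343 on the minus strand for Acaa1b, chr8:46470787-46471036 on the plus strand for Acsl1 and chr5:8997147-8997396 on the minus strand for Crot.
Acaa1b: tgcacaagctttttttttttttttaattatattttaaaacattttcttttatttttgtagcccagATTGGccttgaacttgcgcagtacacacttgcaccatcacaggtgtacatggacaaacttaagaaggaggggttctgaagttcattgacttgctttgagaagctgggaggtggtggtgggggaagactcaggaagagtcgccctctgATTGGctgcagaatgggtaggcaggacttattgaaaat
Acsl1: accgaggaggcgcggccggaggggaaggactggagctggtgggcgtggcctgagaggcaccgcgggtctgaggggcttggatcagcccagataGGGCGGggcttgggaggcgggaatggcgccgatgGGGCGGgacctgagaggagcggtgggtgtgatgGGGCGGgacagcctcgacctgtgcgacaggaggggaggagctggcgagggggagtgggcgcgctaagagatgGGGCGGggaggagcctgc
Crot: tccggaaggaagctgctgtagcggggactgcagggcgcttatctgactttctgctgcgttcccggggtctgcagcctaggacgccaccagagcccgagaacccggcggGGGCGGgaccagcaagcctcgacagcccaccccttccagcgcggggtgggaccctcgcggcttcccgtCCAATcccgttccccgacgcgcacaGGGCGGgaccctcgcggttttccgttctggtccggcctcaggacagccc
The exact repeat, searched on both strands, was in 0 of the 29 windows, as in all but 0.0396% of the 32851 promoter windows of the genome. With at most 1 mismatch it was again in 0 of 29, against 0.554% of all windows, and with at most 2 mismatches in 2 (6.9%), those of Echs1 and Etfa, against 3.86%. None of the 5 genes that passed in a comparison had a match at that tolerance. A single AGGTCA was in 4 windows (13.8%), against 16.3% of all. The shown windows differ in base make-up, with 41.6% G and C for Acaa1b, 72.0% for Acsl1 and 69.6% for Crot. The Acaa1b stretch has 0 GC boxes and 2 CCAAT boxes, that of Acsl1 has 4 GC boxes, and that of Crot has 2 GC boxes and 1 CCAAT box. A CCAAT box was in 11 of the 29 windows (37.9%), near the 37.7% of the windows of the genes tested. A GC box was in 21 of the 29 windows (72.4%), against 60.0% of the windows of the genes tested and 35.7% of all windows. These 2 backgrounds thus differ, and the repeat and the single AGGTCA were set against all windows only. These matches describe the letters of the windows only.

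Library totals ran from 15.854 to 17.577 M counts, and the lowest count of any of the 30 genes in any library was 512, for Crat. Levels of 1 gene between libraries are given as CPM, counts scaled to the TMM-adjusted library size, with the mean ± SD (n = 3 in each group). Log2 changes carry the SE of edgeR's fit, and adjusted p-values come from its quasi-likelihood test with Benjamini-Hochberg adjustment over the 12658 genes. The threshold was an adjusted p of 0.05. The median SE of the 30 genes was 0.129, against 0.162 over all genes tested. The liver label fits the markers, as the 16 hepatocyte markers summed to between 84189 and 133025 CPM in every library. Of the adipocyte markers, Adipoq, Plin1 and Cidea did not exceed 0.116 CPM in any library. Cfd, also made in quantity by fat cells, did, with 0.0621 to 0.0644 CPM in the controls and 2.39, 2.04 and 23.6 CPM in the models 1, 2 and 5, and it rose in the model (adjusted p = 0.0287). All 7 adipocyte markers in the deposited table together summed to between 16.2 and 53.5 CPM in each library. The part of Cfd-expressing cells in the model values was not tested. In bulk tissue, fewer cells of a type and less RNA per cell cannot be told apart.

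To compare genes with each other, the deposited TPM, which are per length, were used. In the control, mitochondrial thiolase Acaa2 had the highest level of the 30 at 865 ± 39.1 TPM, with Acaa1b next at 796 ± 39.5 TPM. Acaa2 was above Acaa1b in each of the controls 1, 2 and 3, at 908, 831.0 and 855 TPM against 839, 761 and 787 TPM. Etfb, a subunit of the electron transfer flavoprotein, came next in order at 578 ± 34.7 TPM. Ech1, a dienoyl-CoA isomerase, was at 332 ± 21.2 TPM and Acsl1 at 325 ± 46.4 TPM, closer to each other than their spread. At the other end stood Pex11a, a peroxisome division factor, at 49.5 ± 4.07 TPM, Ppara itself at 41.8 ± 6.57 TPM and Crat, the carnitine acetyltransferase, at 27.9 ± 0.886 TPM. Over all 15 libraries Acaa1b averaged 1264 TPM and Acaa2 879 TPM. The order of the top genes therefore depended on the group, as the plot of level per length shows.

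**Figure D1:**
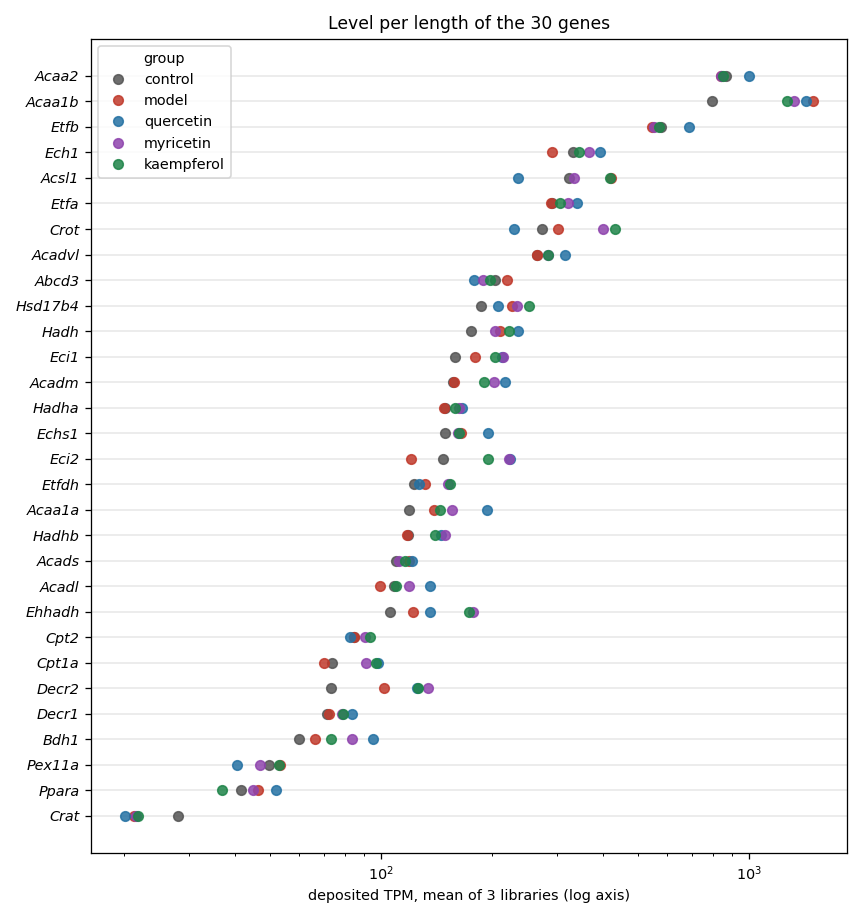
Level per length of the 30 genes, as deposited TPM on a log axis, where each point is the mean of 3 libraries of a group and genes are ordered by the control mean. Acaa2 (865 TPM in the control) and Acaa1b (796) lead and Crat (27.9) is lowest, and every high-fat group of Acaa1b (1490 TPM in the model) stands to the right of its control.

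The first comparison, model against control, asks what the cholesterol-rich high-fat diet did to these genes. Of the 30, 2 passed and both rose, Acaa1b and Decr2, where 4.46% of all genes tested passed and 2.2% rose. With these, 6 had an unadjusted p under 0.05, a share near the 21.7% of all genes tested. The median log2 fold change of the 30 was 0.13, with 24 genes at a higher value and 6 at a lower one, against a median of -0.008 and 48.8% higher over all genes tested. In 10 genes every model library was above every control library, and in 2 every one was below, against 15.1% and 14.9% of all genes tested. The log2 changes lay within 0.5 of 0 for 28 of the 30 genes, and the 95% interval lay within 1 of 0 for 29. Leaving out control 3, which had the lowest level in its group for 23 of the 30 genes, took the median from 0.13 to 0.06.

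Acaa1b cuts acetyl-CoA from the shortened chain in the last step of a peroxisomal round. It measured 987, 933 and 875 CPM in the controls 1, 2 and 3. The models 1, 2 and 5 had 1809.9, 1585 and 1985 CPM. Every model library was far above every control, and the groups did not come near each other. The means were 932 ± 55.8 and 1793 ± 200.0 CPM, a log2 change of 0.94 ± 0.15 (adjusted p = 0.00586). With Acaa1a and Acaa1b counted as 1 gene, a setting chosen after seeing the data, the log2 change was 0.87 (adjusted p = 0.00763). Taken alone, Acaa1a had 168, 145 and 134 CPM in the controls and 172, 176 and 189 CPM in the models, groups that lie close but do not overlap. Its log2 change of 0.27 ± 0.12 did not pass (adjusted p = 0.204). Acaa1b had 1410.3, 1532 and 1581.5 CPM with quercetin, all below the models (log2 change -0.25 ± 0.15, adjusted p = 0.341). Acaa1a there had 192, 239 and 225 CPM, all above the models (0.29 ± 0.12, adjusted p = 0.156). Acaa1b had 1203, 1667 and 1614 CPM with myricetin and 1707, 1531 and 1144.5 CPM with kaempferol. Acaa1a had 172.5, 178 and 218 CPM and 185.5, 185 and 162 CPM in the same order. Neither gene passed with any flavonoid.

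Decr2 (chr17:26081208-26090322) removes double bonds of polyunsaturated chains in the peroxisome. Its control libraries lay between 108 and 110.1 CPM, and its models had 157, 156 and 157 CPM. Within each group the libraries were almost equal, and the groups were well apart. The log2 change was 0.52 ± 0.12 (adjusted p = 0.0226). It stayed at 0.51 to 0.53 when libraries were left out in turn, but the adjusted p rose to as much as 0.0861 and missed the threshold without control 2, control 3, model 1, model 2 or model 5. With quercetin Decr2 had 136, 177 and 196 CPM, which overlapped the models (adjusted p = 0.601). With kaempferol it had 192, 193 and 170.3 CPM, all above the models, and did not pass (adjusted p = 0.443). Decr1, the mitochondrial counterpart of Decr2, measured 153 ± 15.7 CPM in control livers and 159 ± 6.80 CPM in model livers, with overlapping libraries.

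Macrophage, endothelial and lymphocyte markers also moved in this comparison. Of 14 macrophage markers 4 rose (Mrc1, Clec4f, Cd68 and Csf1r) and 0 fell, and their summed level ran from 151 to 247 CPM in controls and from 313 to 456 CPM in models. Of 14 endothelial markers 5 rose and 0 fell, with sums of 172 to 254 CPM against 271 to 350.4 CPM. Of 12 lymphocyte markers 2 rose, Klrk1 and Cd4, and 0 fell, with low sums of 4.7 to 13.0 CPM against 14.6 to 20.6 CPM. Of 16 hepatocyte markers 1 fell, Hnf4a, and 0 rose. Their sums were lower in the models, at 90414 to 112250 CPM, than in the controls, at 117892 to 133025 CPM, without overlap. Of 20 ribosomal protein genes 5 fell. The part of these shifts in the levels of Acaa1b and Decr2 was not tested.

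**Figure D2:**
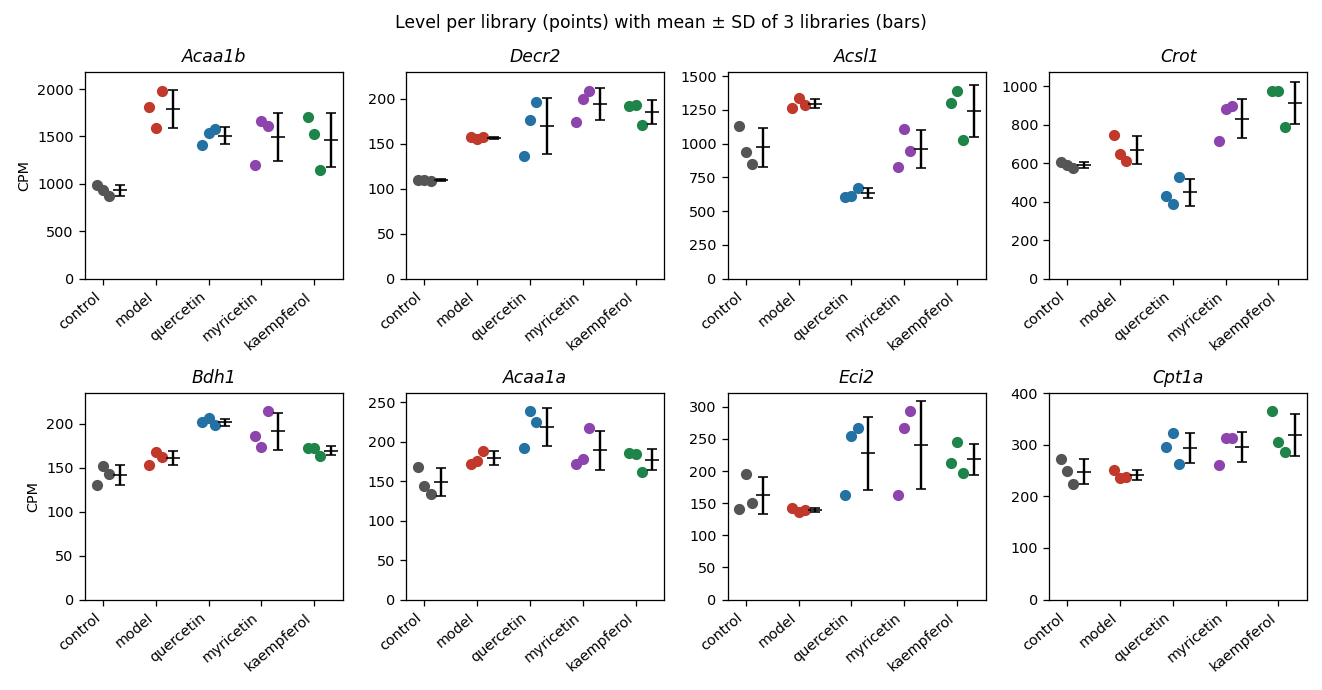
CPM in each library of 8 of the 30 genes, with points for the 3 libraries of a group and a bar at the mean with its SD, and axes that start at 0. Acaa1b and Decr2 are lowest in the 3 control libraries, and Acsl1 and Crot are lowest in the 3 quercetin libraries, where Acsl1 lies between 608 and 675 CPM.

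The other comparisons set each flavonoid group against the model, with the same 3 model libraries in each. Doses differed between compounds, so values are given side by side and compounds are not compared in pairs. The test for any difference among the 4 high-fat groups passed for 2 of the 30 genes, Acsl1 (adjusted p = 0.00149) and Crot (adjusted p = 0.00144), where 4.87% of all genes tested passed. Over all 5 groups 6 of the 30 passed, against 16.1% of all genes. These were Crot (adjusted p = 0.00109), Acsl1 (0.00153), Decr2 (0.0022), Acaa1b (0.00687), Bdh1 (0.0097) and Acaa1a (0.0377).

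With quercetin, 3 of the 30 genes passed, Bdh1 upward and Acsl1 and Crot downward, where 7.82% of all genes tested passed, 4.06% upward and 3.76% downward. With these, 12 had an unadjusted p under 0.05, against 23.1% of all genes tested. The median log2 change was 0.04, near the 0.007 of all genes, with 16 genes at a higher value and 14 at a lower one. Without quercetin 2, 5 or 8 in turn it was 0.08, 0.014 and -0.03. In 7 genes every quercetin library was above every model library, and in 8 every one was below, against 15.4% and 14.2% of all genes tested.

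Acsl1 (chr8:46471037-46536051) starts the use of long-chain fatty acids by joining them to coenzyme A. The models 1, 2 and 5 had 1266, 1336 and 1289 CPM, and the quercetin libraries 2, 5 and 8 had 608, 616 and 675 CPM. The groups were tight and far apart. The means were 1297 ± 36.0 and 633 ± 36.4 CPM, a log2 change of -1.04 ± 0.14 (adjusted p = 0.000444), the farthest from 0 of any of the 30 genes in any of the 4 comparisons. The quercetin libraries also lay below the controls, which had 1133, 936 and 848 CPM. Myricetin libraries 5, 7 and 8 had 824, 1111 and 949 CPM, all below the models, for a log2 change of -0.43 ± 0.14 that did not pass (adjusted p = 0.205). Kaempferol libraries 3, 5 and 8 had 1305, 1394 and 1025 CPM, on both sides of the models (log2 change -0.06 ± 0.14, adjusted p = 0.926). The adjusted p of the quercetin change stayed under 0.05 in all 22 alternative settings.

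Crot (chr5:8966033-8997146) links medium-length chains that leave the peroxisome to carnitine. It had 607, 589.5 and 575 CPM in the controls and 749, 648 and 609.8 CPM in the models. Quercetin libraries had 430.4, 390.5 and 527 CPM, below every model and every control library. The log2 change was -0.57 ± 0.13 (adjusted p = 0.0154). The other flavonoid groups lay on the opposite side of the model, with 715, 883 and 896 CPM for myricetin and 977, 973 and 789 CPM for kaempferol. Those log2 changes were 0.31 ± 0.13 (adjusted p = 0.364) and 0.45 ± 0.13 (adjusted p = 0.179), and neither passed. The quercetin call was lost without model 1 or without quercetin 5, where the adjusted p reached 0.0814.

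Bdh1 (chr16:31422297-31458901) was the single member of the list from ketone body metabolism. Its levels were 130, 152 and 143 CPM in the controls, 153, 168 and 162 CPM in the models, and 201, 206 and 198 CPM with quercetin. Each quercetin library was above each model library. The log2 change of 0.33 ± 0.10 passed narrowly (adjusted p = 0.047). It did not pass in 17 of 22 alternative settings, among them 12 of the 15 fits that left out 1 library, with adjusted p between 0.0278 and 0.172 over those fits. Myricetin libraries had 186, 174 and 214 CPM and kaempferol libraries 172, 172 and 163 CPM, with log2 changes of 0.25 ± 0.10 (adjusted p = 0.301) and 0.07 ± 0.10 (adjusted p = 0.852).

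Circadian clock genes moved strongly beside these values. Of 18 clock genes tested, 7 rose and 6 fell with quercetin, 3 rose and 2 fell with myricetin, and 0 rose and 1 fell with kaempferol. Nr1d1, a clock repressor, had 4.16, 6.63 and 7.05 CPM in the models. It had 150.5, 86.8 and 113 CPM with quercetin, 73.3, 134 and 84.1 CPM with myricetin, and 17.9, 14.1 and 24.1 CPM with kaempferol. Dbp, a clock output factor, had 2.68 ± 0.425 CPM in the model and 143 ± 18.7 CPM with quercetin. The time of collection is not stated, and the part of the clock genes in the levels of Acsl1, Crot and Bdh1 was not tested. Of 20 ribosomal protein genes 8 rose with quercetin, and the 14 macrophage markers summed to 417 to 477 CPM, with 0 passing. Of the 14 endothelial markers 1 fell, Vwf, from 8.06 ± 0.497 to 4.61 ± 0.0536 CPM (log2 change -0.81 ± 0.19, adjusted p = 0.0146), and 0 rose. Their sums were 221 to 314 CPM with quercetin and overlapped the models. The part of these markers was not tested either.

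Eci2 (chr13:34977748-35027115), an enoyl-CoA isomerase that moves double bonds into place for oxidation, came close to the threshold in the quercetin comparison. The models had 143, 136 and 140 CPM. Quercetin libraries had 162, 254 and 266 CPM, myricetin libraries 162, 267 and 293 CPM, and kaempferol libraries 213, 245 and 197 CPM. All 9 flavonoid libraries were above all 3 models, which held for 2 of the 30 genes (Eci2 and Cpt1a) and for 2.33% of all genes tested. None of the 30 had all 9 below, against 2.35% of all genes. Log2 changes were 0.71 ± 0.21 (adjusted p = 0.0555), 0.79 ± 0.21 (adjusted p = 0.136) and 0.65 ± 0.21 (adjusted p = 0.228) for quercetin, myricetin and kaempferol. The 3 comparisons share the model libraries, whose spread for Eci2 was small at 3.18 CPM (SD), while the controls had 141, 195 and 151 CPM and overlapped the quercetin and myricetin libraries. In the authors' deposited table, Eci2 had q values of 0.00181, 0.00168 and 4.11e-05 in the same order.

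With myricetin, 0 of the 30 genes passed edgeR's test, where 0.395% of all genes tested passed. By DESeq2 1 passed, Eci2 (adjusted p = 0.0224), and 7 had an unadjusted p under 0.05 in edgeR, against 11.9% of all genes tested. The 3 smallest p-values belonged to Eci2, Acsl1 and Decr2. Decr2 had 175, 199.5 and 209 CPM, all above the models at 156 to 157 CPM, for a log2 change of 0.31 ± 0.12 (adjusted p = 0.285). The median log2 change of the 30 was 0.03, against 0.009 over all genes. In 4 genes every myricetin library was above every model library, and in 3 every one was below, against 9.54% and 9.23% of all genes tested. Myricetin 5 had the lowest level in its group for 22 of the 30 genes, and without it the median was 0.15 and Eci2 passed, with a log2 change of 1.00 (adjusted p = 0.0226). The median was -0.05 without myricetin 8 and 0.05 without myricetin 7.

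With kaempferol, 0 of the 30 genes passed edgeR's test either, where 0.0395% of all genes tested passed. By DESeq2 1 passed, Ppara (adjusted p = 0.0444), and 4 had an unadjusted p under 0.05 in edgeR, near the 11.7% of all genes tested. Ppara (chr15:85734910-85806851), which encodes the receptor itself, had 249.7, 257 and 272 CPM in the models and 218, 193 and 176 CPM with kaempferol. Each kaempferol library was below each model library, for a log2 change of -0.41 ± 0.12 (adjusted p = 0.162). The controls, at 269, 221 and 193 CPM, overlapped both groups. Cpt1a (chr19:3322326-3385735) makes the acyl-carnitine that enters the mitochondrion and is the step that malonyl-CoA blocks. It had 252, 235 and 238 CPM in the models and 365, 305 and 285 CPM with kaempferol, for a log2 change of 0.40 ± 0.12 (adjusted p = 0.179). With quercetin it had 296, 322 and 263 CPM and with myricetin 261, 312 and 312.5 CPM, with log2 changes of 0.28 ± 0.12 (adjusted p = 0.163) and 0.29 ± 0.12 (adjusted p = 0.339).

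In 7 genes every kaempferol library was above every model library, and in 1, Ppara, every one was below, against 10.2% and 8.75% of all genes tested. The median log2 change of the 30 was 0.05, against 0.01 over all genes. Kaempferol 8 was the lowest of its group for 28 of the 30 genes, and without it the median was 0.10 and still 0 genes passed. The median was -0.003 without kaempferol 5 and 0.025 without kaempferol 3. Kaempferol 8 also stood out in macrophage markers, which summed to 1146 CPM there, against 543 and 552 CPM in kaempferol 5 and 3. All 3 kaempferol libraries were above the models, at 313 to 456 CPM. The part of those markers in the values of the kaempferol libraries was not tested.

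**Figure D3:**
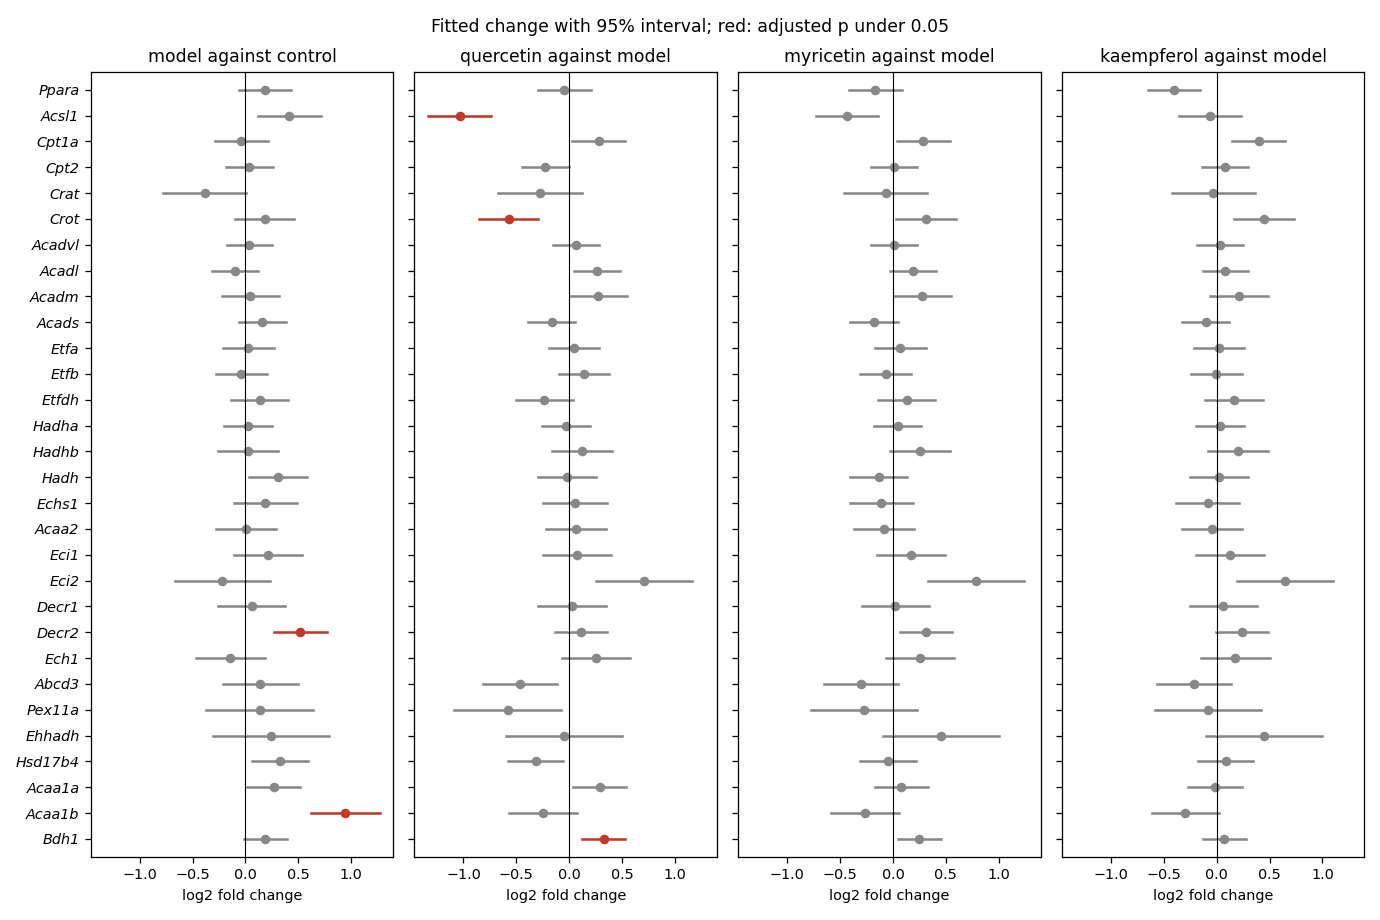
Fitted log2 fold change (points) with its 95% interval (lines) of the 30 genes in the 4 comparisons, in red where the adjusted p was under 0.05. Red marks Acaa1b and Decr2 in the model, and Acsl1, Crot and Bdh1 with quercetin, where Acsl1 at -1.04 is the farthest from 0.

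By role, the carnitine and activation genes spread most widely with quercetin. The 5 genes (Acsl1, Cpt1a, Cpt2, Crat and Crot) had log2 changes from -1.04 to 0.28 with a median of -0.28, and 2 fell. Cpt2, the inner-membrane carnitine palmitoyltransferase, had 124, 129 and 134.5 CPM with quercetin, all below the models at 145 to 161 CPM (log2 change -0.23 ± 0.10, adjusted p = 0.203). Crat was lower in the model, at 54.5, 43.6 and 49.8 CPM, than in the control, at 61.7, 68.7 and 62.7 CPM, without overlap, but its log2 change of -0.39 ± 0.18 did not pass (adjusted p = 0.239). The genes of this role thus did not share 1 direction in any comparison.

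The 7 acyl-CoA dehydrogenase and electron transfer genes (Acadvl, Acadl, Acadm, Acads, Etfa, Etfb and Etfdh) had small differences in each comparison. These enzymes take the first pair of electrons from each chain length and pass them on to the respiratory chain. Their log2 changes lay between -0.10 and 0.16 in the model, between -0.23 and 0.28 with quercetin, between -0.18 and 0.28 with myricetin and between -0.10 and 0.21 with kaempferol, and 0 of 7 passed in each. Acadl, the long-chain dehydrogenase, had 160, 182 and 174 CPM with quercetin, all above the models at 136 to 149.9 CPM (log2 change 0.26 ± 0.10, adjusted p = 0.13). Acadm, the medium-chain dehydrogenase, had 276, 292 and 318 CPM against 239 to 246 CPM (log2 change 0.28 ± 0.13, adjusted p = 0.205). Acads, the short-chain form, had 132, 151 and 158 CPM, all below the models at 159.5 to 168 CPM (log2 change -0.17 ± 0.11, adjusted p = 0.365).

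The 5 genes of the later mitochondrial steps (Hadha, Hadhb, Hadh, Echs1 and Acaa2) also had 0 passing in each comparison. The change farthest from 0 among them was that of Hadh in the model. Hadha and Hadhb encode the subunits of the trifunctional protein and lie head to head on chr5 with 272 bases between them. In the model Hadha was at 312 ± 25.1 CPM and Hadhb at 181 ± 5.73 CPM, against 307 ± 16.7 and 178.5 ± 16.0 CPM in the control, so neither differed beyond the spread. Hadh, the short-chain hydroxyacyl-CoA dehydrogenase, had 276, 265 and 289 CPM in the models against 246, 223 and 203 CPM in the controls, without overlap (log2 change 0.31 ± 0.13, adjusted p = 0.179). Acaa2 measured 897 ± 31.5 CPM in the model and 896 ± 51.1 CPM in the control, with a 95% interval of the log2 change from -0.28 to 0.29.

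Among the 6 peroxisomal genes (Abcd3, Pex11a, Ehhadh, Hsd17b4, Acaa1a and Acaa1b), every log2 change was above 0 in the model, from 0.13 to 0.94 with a median of 0.25. Of these 1 passed, Acaa1b. Hsd17b4, the bifunctional enzyme for branched chains, had 452, 484 and 483 CPM in the models and 388, 395 and 350.2 CPM in the controls, without overlap (log2 change 0.33 ± 0.12, adjusted p = 0.137). With quercetin it had 332, 385 and 423 CPM, all below the models (log2 change -0.32 ± 0.12, adjusted p = 0.134). Abcd3, the peroxisomal membrane transporter for acyl-CoA, likewise lay below the models with quercetin, at 350.1, 425 and 544 CPM against 566 to 637 CPM (log2 change -0.47 ± 0.17, adjusted p = 0.1). The median of the 6 genes with quercetin was -0.28, and none passed.

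Pex11a and Ehhadh were the most variable of the 30 within groups. Pex11a had the widest spread of the 30 in the model and with quercetin, where its libraries had 37.6, 86.6 and 62.8 CPM. Ehhadh, the other bifunctional enzyme of the peroxisome and a classic PPAR alpha target, had the widest spread in the control and with myricetin and kaempferol. Its values were 229.6, 509 and 434 CPM with myricetin and 451, 429 and 287 CPM with kaempferol, against 282 to 294 CPM in the models. The log2 changes of 0.45 ± 0.26 (adjusted p = 0.523) and 0.45 ± 0.26 (adjusted p = 0.556) did not pass. In each case 1 library, myricetin 5 or kaempferol 8, lay at or below the level of the models.

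Libraries of a group differed across the whole list in a like manner. Kaempferol 8 was below its group's mean for 30 of 30 genes, by a median of 0.15 on the log2 scale, and control 3 for 29 of 30, by a median of 0.10. Myricetin 5 was below its group's mean for 28 of 30 and quercetin 2 for 27 of 30, while myricetin 8 and quercetin 8 were below for 2 and 4 of 30. The 3 model libraries, in contrast, were below for 12, 18 and 12 of 30. Over all genes the share below the group's mean was 46.0% to 54.0% in every library. The median SD of the 30 genes on the log2 scale was 0.06 in models, 0.12 in controls, 0.15 with quercetin, 0.19 with myricetin and 0.17 with kaempferol, against 0.14, 0.16, 0.18, 0.18 and 0.16 over all genes.

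Other genes of the mitochondrion varied along with the list, and so, in part, did genes outside it. Of 27 nuclear genes of the respiratory chain, 27 were below the group's mean in kaempferol 8, 27 in control 3, 26 in myricetin 5 and 26 in quercetin 2, and 0 in myricetin 8, quercetin 8 and kaempferol 5. Quercetin 5 broke the pattern, with 27 of the 27 below although 10 of the 30 oxidation genes were. Kaempferol 3 departed from it too, with 18 of the 27 below against 8 of the 30. None of the 27 passed in any of the 4 comparisons. Ribosomal protein genes were below for 19 of 20 in myricetin 5 and in quercetin 2, for 18 in kaempferol 8 and for 6 in control 3. Of 29 further peroxisomal genes, 23 were below in kaempferol 8, 21 in quercetin 2, 20 in myricetin 5 and 17 in control 3. Hepatocyte markers were below for 14 of 16 in control 3, 12 in myricetin 5, 9 in kaempferol 8 and 7 in quercetin 2. What these libraries share was not tested.

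**Figure D4:**
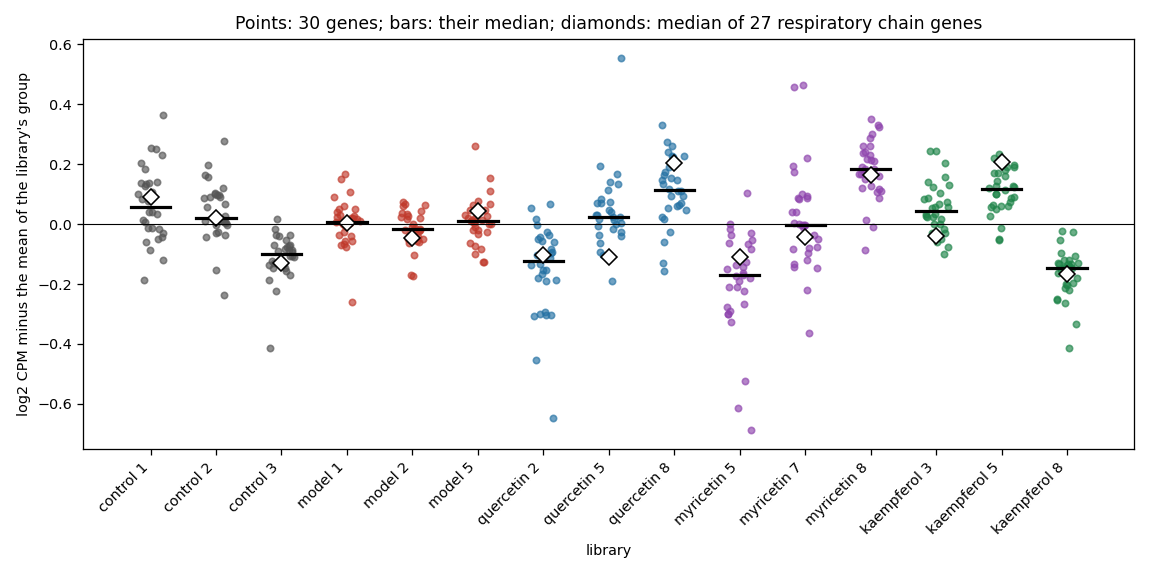
Difference of each of the 30 genes from the mean log2 CPM of its group in each library (points), with the median of the 30 (bars) and the median of 27 nuclear respiratory chain genes (diamonds). Kaempferol 8 lies below 0 for 30 of 30 genes and myricetin 8 above 0 for 28 of 30, and the 3 model libraries lie near 0.

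**Figure D5:**
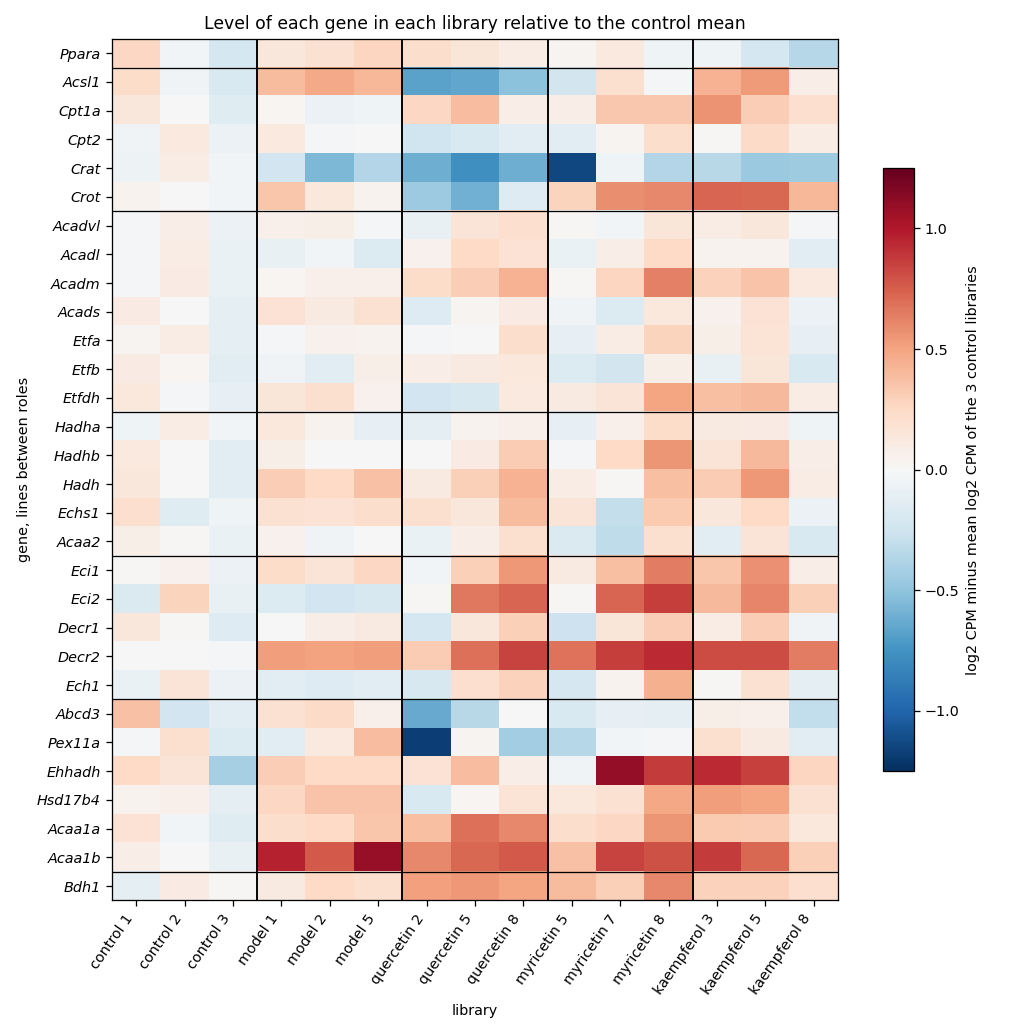
Log2 CPM of each gene in each library minus the mean log2 CPM of the 3 control libraries, in red where higher and blue where lower, with genes in rows by role and libraries in columns by group. Decr2 and Acaa1b are red in all 12 high-fat libraries and Acsl1 is blue in the 3 quercetin libraries.

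The neighbours of these genes in the pathway were read from wider lists. Ketogenesis beyond Bdh1 held 6 genes, of which 0 passed in the model and 1 fell with quercetin. That was Slc16a1, the monocarboxylate transporter that lets ketone bodies out of the cell, with 62.3, 71.9 and 44.9 CPM in the models and 28.6, 23.2 and 30.6 CPM with quercetin (log2 change -1.12 ± 0.18, adjusted p = 0.00199). Bdh1 and Slc16a1 thus passed in opposite directions with quercetin.

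Of 29 further peroxisomal genes, 2 rose in the model, the protease Lonp2 (log2 change 0.72 ± 0.14, adjusted p = 0.0108) and the branched-chain oxidase Acox2 (0.57 ± 0.14, adjusted p = 0.0336). The median of the 29 was 0.19, beside the 0.25 of the 6 peroxisomal genes of the list. With quercetin 2 of the 29 rose and 1 fell. Those that rose were Abcd2, a transporter of very long chains (2.35 ± 0.51, adjusted p = 0.0158), and the hydrolase Nudt19 (0.45 ± 0.13, adjusted p = 0.0387). With myricetin and kaempferol 0 of the 29 passed. Abcd2 libraries 2, 5 and 8 with quercetin had 22.8, 9.21 and 5.97 CPM, against at most 3.43 CPM in the models. The controls, at 5.07, 8.37 and 8.32 CPM, overlapped the quercetin libraries.

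Of 13 further carnitine and activation genes, 1 passed, Acot13, a thioesterase that undoes the work of Acsl1, which rose with quercetin (0.51 ± 0.11, adjusted p = 0.0104). The carnitine carrier of the inner membrane, Slc25a20, was at 119 ± 9.23 CPM in the control, 135.5 ± 6.11 CPM in the model and 121 ± 23.7 CPM with quercetin, and did not pass in any comparison. Of 14 further mitochondrial oxidation genes tested, 1 passed in the 4 comparisons, Acsm5, a medium-chain acyl-CoA synthetase, which rose in the model (0.45 ± 0.11, adjusted p = 0.0281).

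PPAR alpha targets outside oxidation did not move as 1 group. Of 21 tested, 2 rose and 1 fell in the model, 1 rose and 4 fell with quercetin, and 0 passed with myricetin or kaempferol. In the model Aldh3a2, a fatty aldehyde dehydrogenase, and Cidec, a lipid droplet protein, rose and the droplet protein Plin5 fell. Cidec was near the floor, at 0.254, 0.129 and 0.497 CPM in the controls and 1.29, 1.86 and 3.16 CPM in the models. With quercetin Cyp4a14, an omega-hydroxylase of fatty acids from a family of near-identical genes that can share reads, rose from 5.18 ± 2.83 to 162 ± 124 CPM (log2 change 4.95 ± 1.34, adjusted p = 0.0494). Its quercetin libraries had 134, 298 and 54.5 CPM, while the controls had 42.0, 277 and 88.0 CPM, which overlap. Pdk4, a kinase that shuts glucose carbon out of the mitochondrion, fell from at least 9.12 CPM in each model library to at most 2.56 CPM in each quercetin library (-2.64 ± 0.40, adjusted p = 0.00158). Plin2, Cyp8b1 and Slc25a42 fell as well. Fgf21, a hormone made by fasting liver, had 3.34 ± 2.35 CPM on standard feed and 0.874 ± 0.371 CPM in the model and did not pass (adjusted p = 0.0511).

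Among 23 regulators of oxidation, 1 rose and 2 fell in the model, 3 rose and 2 fell with quercetin, 2 rose with myricetin and 0 passed with kaempferol. Lpin1, a phosphatase that also acts as a coactivator with PPAR alpha, fell in the model from 109 ± 64.0 to 22.1 ± 4.01 CPM (-2.30 ± 0.51, adjusted p = 0.0308) and rose with quercetin to 101 ± 51.4 CPM (2.20 ± 0.51, adjusted p = 0.0247). Pparg rose in the model (1.27 ± 0.22, adjusted p = 0.00858), and Esrra, a nuclear receptor of mitochondrial genes, fell (-0.51 ± 0.14, adjusted p = 0.043). With quercetin the corepressor Ncor1 fell (-0.54 ± 0.11, adjusted p = 0.00834) and Ppard fell (-2.19 ± 0.39, adjusted p = 0.00633). Nr1d1 and Nr1d2 rose with quercetin and with myricetin, and both also count among the clock genes above. Ppargc1a, the coactivator of mitochondrial genes, had 6.32 ± 2.36 CPM on standard feed and 3.96 ± 0.762 CPM in the model and did not pass in any comparison. Ppara itself did not pass edgeR's test in any comparison.

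In the authors' deposited table, 4 of the 30 genes had a q value under 0.05 in the model, where 6.28% of all genes with a q value had one. The authors' deposited table gave such a q value to 4 with quercetin (5.95% of all genes), 2 with myricetin (1.73%) and 3 with kaempferol (1.73%). Of the genes that had one there and did not pass here, Acsl1 (q = 0.0185) and Hsd17b4 (q = 0.0292) were called in the model in the authors' deposited table. Abcd3 (q = 0.0431) and Eci2 were called with quercetin there. Acsl1 (q = 0.0444) and Eci2 were called with myricetin in the authors' deposited table, and Ppara (q = 0.0241), Crot (q = 0.0469) and Eci2 with kaempferol. Bdh1 with quercetin had a q value of 0.0653 in the authors' deposited table.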

How the data were processed

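The submitters' processing notes name HISAT2 2.1.0, RSEM 1.3.1, Bowtie2 2.3.4.3 and DESeq2 1.4.5, and GRCm38.p6 as the build, without saying what each was used for. The deposited table gives each gene an expected count, an FPKM and a TPM value per library, per the file headers. For 4 comparisons it adds a log2 fold change, a DESeq2 p-value and a q value, all by the authors, per the file headers. Strand was not given in the sources used here. The deposited FPKM and group averages were not used.

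Expected counts (5.37% of values not whole) were rounded, filtered with filterByExpr (12658 genes kept), scaled by TMM and fitted in R 4.3.3 with edgeR 4.0.16 (robust quasi-likelihood). The fit held all 15 libraries and 10 residual degrees of freedom. Tests were 2-sided with Benjamini-Hochberg adjustment. The SE is the size of the log2 fold change over the square root of F, so it and the 95% interval are approximate. Alternatives were DESeq2 1.42.0, other scalings, no filter, no robust step, only the groups compared, a replicate block and leaving out each library. The code was tested on simulated data. Deviations from a group's mean used log2(CPM + 0.5).

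Members, pathway lists and markers were chosen with earlier results of these data known. Members that passed, or the 3 smallest p-values where none did, are given by library or as a range in the groups compared. From other lists up to 4 passing genes per direction and a few fixed genes are named. Results of some of these genes are left out. Other members were singled out for libraries that do not overlap after their values were seen. Lymphocyte, stellate, cholangiocyte, adipocyte, periportal and pericentral markers, described no further than above, had at most 2 genes passing in a comparison.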

Additional observations from a re-analysis of the deposited data

How the results depend on the processing

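Over 22 alternatives per comparison (21 for tests over several groups), no call among the 30 genes reversed, and the medians moved by less than 0.131, the spread between libraries of the mean over the 30, though those of the 3 flavonoid comparisons turned below 0 without quercetin 8, myricetin 8 or kaempferol 5. Counts of the 30 genes passing changed as follows. With DESeq2 the count was 1 with myricetin, 1 with kaempferol, 11 over the 5 groups (6 in edgeR) and 5 over the 4 high-fat groups (2 in edgeR). Fitting only the 2 groups compared gave 1 with kaempferol. Leaving out 1 library at a time gave 1 to 3 in the model (2 with all) and 0 to 1 with myricetin. With quercetin it gave 1 to 4 (3 with all, with 1 left without model 1). Over the 5 groups it gave 5 to 10 (10 without myricetin 5), and over the 4 high-fat groups 2 to 3. The number in the titles as a replicate block gave 0 in the model, 1 with quercetin and 2 over the 5 groups. Same-numbered libraries did not deviate together over all genes (14 pairs, correlation from -0.238 to 0.098, median -0.052). With 3 libraries per group, this cannot show whether the numbers pair the libraries. The adjusted p under the block was 0.0632 for Acaa1b, 0.135 for Decr2, 0.126 for Crot and 0.274 for Bdh1. The log2 changes there were 0.97, 0.52, -0.55 and 0.28 in the same order. The block adds terms for the title numbers, so it leaves fewer than the 10 residual degrees of freedom of the main fit. Acaa1a over the 5 groups passed in 12 of 21 alternatives. Of 3490 further checks of single genes that had not passed in the main fit, 3455 again did not pass, 35 newly passed and 0 reversed. Many of these fits left out a library of a group outside the comparison, which can change its result little. Counting Acaa1a and Acaa1b as 1 gene was chosen after seeing the data. Depth did not limit these genes, whose lowest count was 512, while 3 libraries per group limit the precision.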
